A study of Mus musculus with 6 samples.

Results

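Serine, proline and mitochondrial folate synthesis was examined in ventricles that overexpressed COUP-TFII through 10 enzyme genes taken by name from these pathways: *Phgdh*, *Psat1*, *Psph*, *Shmt1*, *Shmt2*, *Mthfd2*, *Mthfd1l*, *Aldh1l2*, *Pycr1* and *Aldh18a1*. A probe set, the group of array probes that reads a transcript, was used when its annotation named 1 gene symbol only. This gave 24 probe sets for 9 of the 10 genes, out of 34945 probe sets and 18193 genes in all. No probe set was annotated to *Pycr1*, the enzyme of the last step to proline, which was not analysed here. In 3 OE ventricles compared with 3 CTRL ventricles, *Psat1* and *Mthfd2* rose most of these genes, 4.30-fold and 2.95-fold. *Phgdh*, *Psph*, *Mthfd1l* and *Aldh18a1* rose by 1.36-fold to 1.54-fold, and *Shmt1*, *Shmt2* and *Aldh1l2* did not pass the test. Of the smaller rises, those of *Psph* and *Aldh18a1* did not pass in one-way analysis of variance.

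OE mice carried Myh6-MerCreMer and CAG-S-COUP-TFII, and CTRL mice carried Myh6-MerCreMer alone, both on a mixed background of 129SvEv and C57Bl6/J. Myh6-MerCreMer gives cardiomyocytes a Cre recombinase that works only under tamoxifen, and in OE mice this Cre opens the transgene of COUP-TFII, a nuclear receptor and transcription factor. Every mouse, CTRL included, was given 40 mg of tamoxifen per kg and day for 3 days from the age of 2 months, and ventricles were taken 16 days after the first dose, at a labelled age of 2.5 months. The transgene is switched on in cardiomyocytes, but the RNA came from whole ventricles, which also hold fibroblasts, endothelial cells and macrophages. In such bulk samples fewer cells of a type and less RNA per cell cannot be told apart.

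Serine is made from a glycolytic intermediate by PHGDH, PSAT1 and PSPH in turn. Serine hydroxymethyltransferases then pass a carbon unit of serine to tetrahydrofolate and leave glycine. In mitochondria MTHFD2 oxidizes that unit. MTHFD1L then releases it as formate for nucleotide synthesis, or ALDH1L2 oxidizes it to carbon dioxide. Proline is made in mitochondria from glutamate, first by ALDH18A1 and last by the PYCR enzymes. Many genes of these pathways are known targets of the transcription factor ATF4, which cells activate in amino acid shortage and in mitochondrial stress. A rise of these genes is a known part of that stress response in muscle and heart with failing mitochondria.

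The values are log2 values relative to the median of all 6 arrays, so 0 is the middle array of a probe set and no level of expression can be read from them. A gene's value is the mean of its probe sets. Where all OE arrays lie above all CTRL arrays in a probe set, its lowest OE and highest CTRL value mirror each other around 0 for this reason. A gene was called where its adjusted p from limma, over all genes, was under 0.05. By this rule 14.9% of all genes were called higher and 11.8% lower in OE ventricles, and of the 9 measured genes 6 were called higher, 0 lower and 3 neither way. Their median log2 change was 0.45, against −0.03 over all genes. The genes were chosen with earlier results of these data known, so these counts describe them and are no test of the pathway. In the same 6 genes every OE array lay above every CTRL array, which held for 22% of all genes, while all OE arrays lay below all CTRL arrays in 23.6% of all genes and in 0 of the 9. As another scale, each array was centred on the 42 measured of 77 listed ribosomal protein genes, whose median log2 change was 0.21. These reference genes were not level: 16 were called higher and 1 lower, and in 34 all OE arrays lay above all CTRL arrays. Centring thus took their rise from every gene. It moved the median of all genes to −0.25, with 7.16% of all genes called higher and 50.8% lower. Counts on that scale below are to be read against these shares. The arrays matched their labels in *Nr2f2*, the gene of COUP-TFII: 1 of its 6 probe sets was at 1.72, 1.60 and 1.91 in OE 1, 2 and 3 and at −1.99, −1.60 and −1.65 in CTRL 1, 2 and 3, 11.2-fold higher in OE, and the other five were not called. Arrays of 1 group lay 0.194 to 0.215 apart in OE and 0.208 to 0.233 in CTRL as root mean square distance over genes, and arrays of different groups 0.375 to 0.427.

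**Figure D1:**
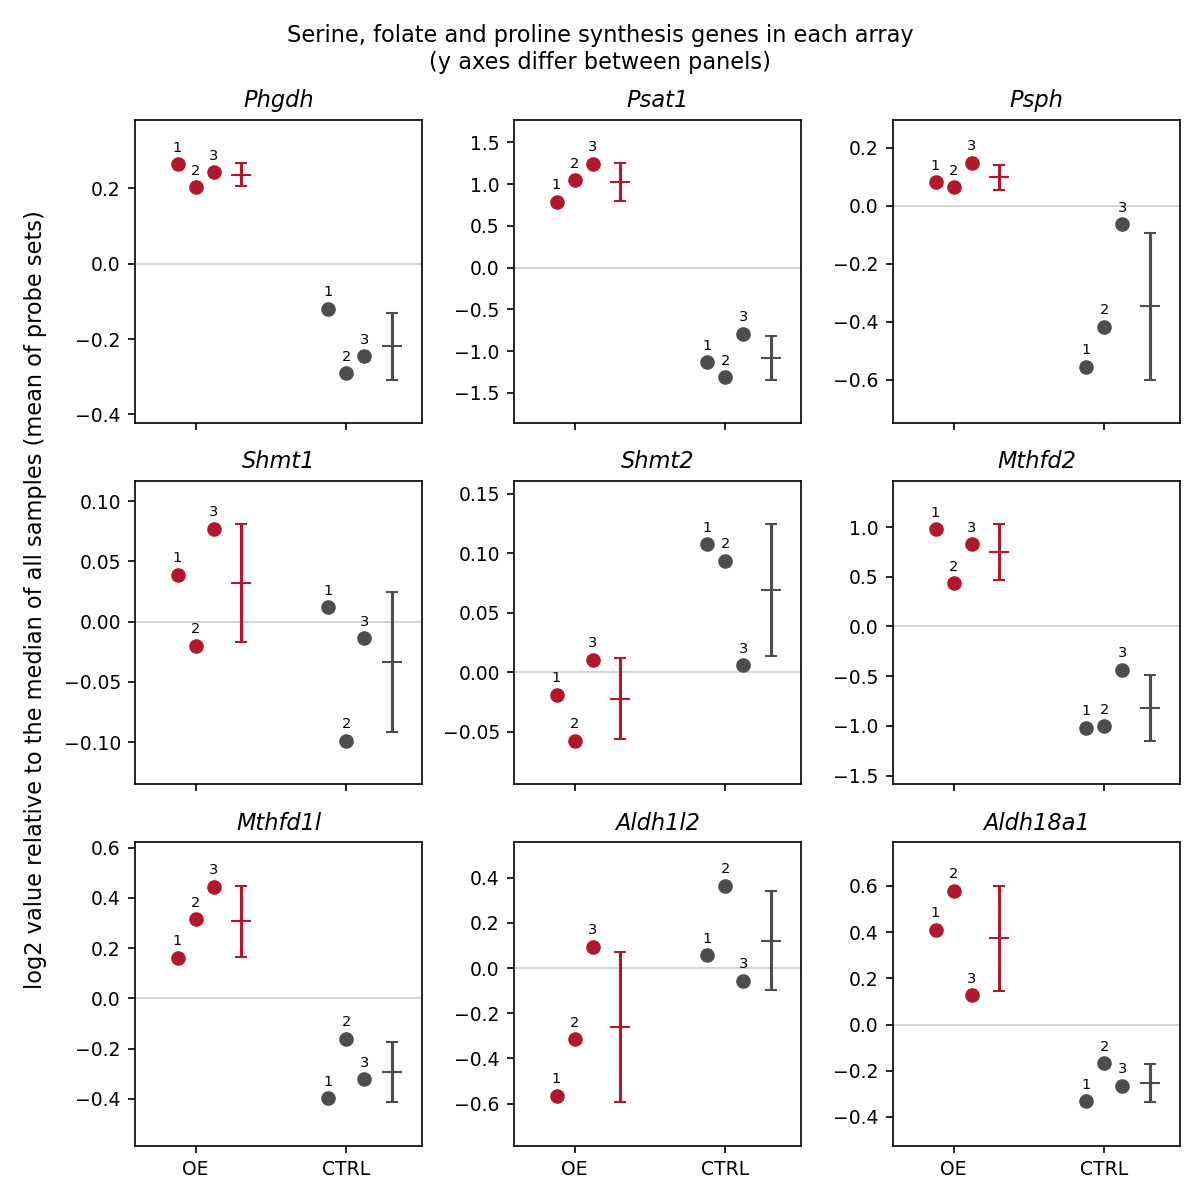
Log2 values of the 9 measured genes in each of the 3 OE arrays (red, left) and 3 CTRL arrays (grey, right), numbered by replicate, relative to the median of all samples. Bars give the mean and SD of a group, and the y axes differ between panels. OE and CTRL arrays do not overlap in *Phgdh*, *Psat1*, *Psph*, *Mthfd2*, *Mthfd1l* and *Aldh18a1*, and overlap in *Shmt1*, *Shmt2* and *Aldh1l2*.

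All 3 genes of serine synthesis were called higher in OE ventricles. *Psat1*, whose enzyme transfers the amino group in the second step, stood at 0.79, 1.05 and 1.24 in OE 1, 2 and 3 and at −1.13, −1.31 and −0.79 in CTRL 1, 2 and 3. Each OE array was high and each CTRL array low, with a gap of 1.58 between the lowest OE and the highest CTRL array. The group means were 1.03 ± 0.23 in OE and −1.08 ± 0.26 in CTRL (SD, n = 3 each), a 4.30-fold rise (log2 2.10, SE 0.16, 95% interval 1.74 to 2.46, limma adjusted p = 0.000255), and 30 of the 18193 genes had a larger rise. Its probe sets moved alike, 3.66-fold for 1451064_a_at and 5.05-fold for 1454607_s_at. Leaving out any 1 array kept the log2 change between 1.99 and 2.25.

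*Phgdh*, the enzyme of the first step, which draws 3-phosphoglycerate out of glycolysis, was at 0.26, 0.20 and 0.24 in the OE arrays and at −0.12, −0.29 and −0.25 in the CTRL arrays. The 3 OE values lay close together and all above CTRL, with means of 0.24 ± 0.03 in OE and −0.22 ± 0.09 in CTRL (SD, n = 3 each). The rise was 1.37-fold with limma (log2 0.45, SE 0.07, adjusted p = 0.0038). This mean hid a split among its 4 probe sets, all with names ending in _x_at, which marks probes that can also bind other transcripts. Probe sets 1437621_x_at and 1454714_x_at rose by 1.85-fold and 1.69-fold, while 1426658_x_at (log2 0.03) and 1456584_x_at (log2 0.15) were not called. In 1437621_x_at the OE arrays were at 0.69, 0.28 and 0.43 and the CTRL arrays at −0.28, −0.45 and −0.52, and in 1426658_x_at the OE arrays, at −0.04, −0.00 and 0.21, overlapped the CTRL arrays, at 0.11, −0.04 and 0.00. A further 2 probe sets named *Phgdh* together with another gene and were not used.

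*Psph*, the phosphatase that releases serine in the last step, was at 0.08, 0.06 and 0.15 in the OE arrays and at −0.56, −0.42 and −0.06 in the CTRL arrays. The groups did not overlap, but CTRL 3 lay just below the OE arrays, with a gap of 0.13. It rose 1.36-fold with limma (log2 0.44, SE 0.12, adjusted p = 0.0321), on 1 probe set. The call did not hold in one-way analysis of variance (adjusted p = 0.126), nor on the scale of the ribosomal protein genes (log2 0.23, adjusted p = 0.132), nor when OE 1, OE 2, OE 3, CTRL 1 or CTRL 2 was left out (adjusted p 0.0687 to 0.0928). Without CTRL 3 the log2 change was 0.59 (adjusted p = 0.00382).

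The promoters of the 2 serine genes with the lowest adjusted p are shown because the genes moved together. They are the 250 bases before the annotated start in the RefSeq promoter table of GRCm38.p6, on the minus strand, at chr3:98339970-98340219 for *Phgdh* and chr19:15925060-15925309 for *Psat1*. Capitals mark the CCAAT box on either strand, of which each of these windows holds 2 copies, and neither holds the composite ATF4 and C/EBP element searched as TGATGNAA. The table has a further window for a start of *Psat1* within the gene, not printed, with 0 CCAAT boxes and 1 GC box, GGGCGG.
Phgdh: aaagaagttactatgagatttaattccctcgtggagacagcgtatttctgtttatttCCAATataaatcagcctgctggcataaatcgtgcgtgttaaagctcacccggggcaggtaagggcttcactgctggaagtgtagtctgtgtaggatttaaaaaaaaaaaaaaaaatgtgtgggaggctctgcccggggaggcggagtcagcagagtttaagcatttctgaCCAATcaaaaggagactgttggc
Psat1: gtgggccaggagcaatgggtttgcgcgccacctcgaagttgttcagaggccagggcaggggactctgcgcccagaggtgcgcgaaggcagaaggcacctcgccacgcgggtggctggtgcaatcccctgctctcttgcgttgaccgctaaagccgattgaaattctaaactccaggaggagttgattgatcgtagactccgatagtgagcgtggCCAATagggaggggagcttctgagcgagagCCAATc

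Of the 5 genes that pass carbon units of serine through folate, 2 were called higher and 3 neither way. *Mthfd2*, the mitochondrial dehydrogenase and cyclohydrolase best known from embryonic and dividing cells, was at 0.98, 0.43 and 0.83 in OE 1, 2 and 3 and at −1.02, −1.0 and −0.43 in CTRL 1, 2 and 3. All OE arrays lay above all CTRL arrays, with OE 2 the lowest of its group and CTRL 3 the highest of its own. Means were 0.75 ± 0.28 in OE and −0.82 ± 0.33 in CTRL (SD, n = 3 each), a 2.95-fold rise (log2 1.56, SE 0.19, 95% interval 1.12 to 2.00, limma adjusted p = 0.00135), and 80 genes had a larger one. Probe set 1419254_at rose 4.28-fold and 1419253_at 2.04-fold. *Mthfd1l*, which releases formate in mitochondria, was at 0.16, 0.32 and 0.44 in the OE arrays and at −0.40, −0.16 and −0.32 in the CTRL arrays, again without overlap. It rose 1.52-fold with limma (log2 0.60, SE 0.10, adjusted p = 0.00445), on 1 probe set.

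The promoter of *Mthfd2*, at chr6:83317605-83317854 on the minus strand of GRCm38.p6, is shown from the same RefSeq table beside the genes it rose with. This window lies within the span annotated to the gene, chr6:83305704-83326011. Capitals mark its 3 CCAAT boxes, of which the middle copy reads ATTGG on the strand printed, and it also lacks TGATGNAA.
Mthfd2: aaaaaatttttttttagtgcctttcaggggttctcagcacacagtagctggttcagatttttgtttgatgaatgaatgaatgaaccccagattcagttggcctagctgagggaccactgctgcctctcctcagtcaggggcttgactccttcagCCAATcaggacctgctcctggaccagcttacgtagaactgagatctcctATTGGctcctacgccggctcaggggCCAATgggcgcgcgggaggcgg

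*Shmt2*, the mitochondrial serine hydroxymethyltransferase that feeds MTHFD2, was at −0.02, −0.06 and 0.01 in the OE arrays and at 0.11, 0.09 and 0.01 in the CTRL arrays. OE 3 and CTRL 3 met, so the groups overlapped, and the log2 difference of −0.09 (95% interval −0.24 to 0.06) was not called (adjusted p = 0.331 from limma). The mean joined probe sets that went opposite ways. Probe set 1426423_at was called higher, at 0.08, 0.13 and 0.32 in OE and −0.16, −0.08 and −0.13 in CTRL (log2 0.30, adjusted p = 0.0438 over probe sets from limma). Probe set 1455985_x_at was called lower, at −0.08, −0.17 and −0.15 in OE and 0.28, 0.20 and 0.08 in CTRL (log2 −0.32, adjusted p = 0.0283). The other two, also with names in _x_at, were at log2 −0.16 and −0.19 and not called, so no direction is given for *Shmt2*.

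*Shmt1*, the cytosolic form of the same enzyme, was at 0.04, −0.02 and 0.08 in the OE arrays and at 0.01, −0.10 and −0.01 in the CTRL arrays, which overlapped. Its log2 difference was 0.07 (95% interval −0.09 to 0.22, adjusted p = 0.499 from limma), and its 4 probe sets, with differences of −0.27 to 0.30, were all not called. *Aldh1l2*, which burns the folate carbon unit to carbon dioxide in mitochondria, was at −0.56, −0.31 and 0.09 in the OE arrays and at 0.06, 0.36 and −0.06 in the CTRL arrays. OE 1 and OE 2 were the lowest arrays, and OE 3 lay among CTRL. The log2 difference of −0.38 (95% interval −0.79 to 0.02) was not called (adjusted p = 0.142 from limma), but it was called lower without OE 3 (log2 −0.56, adjusted p = 0.0397).

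**Figure D2:**
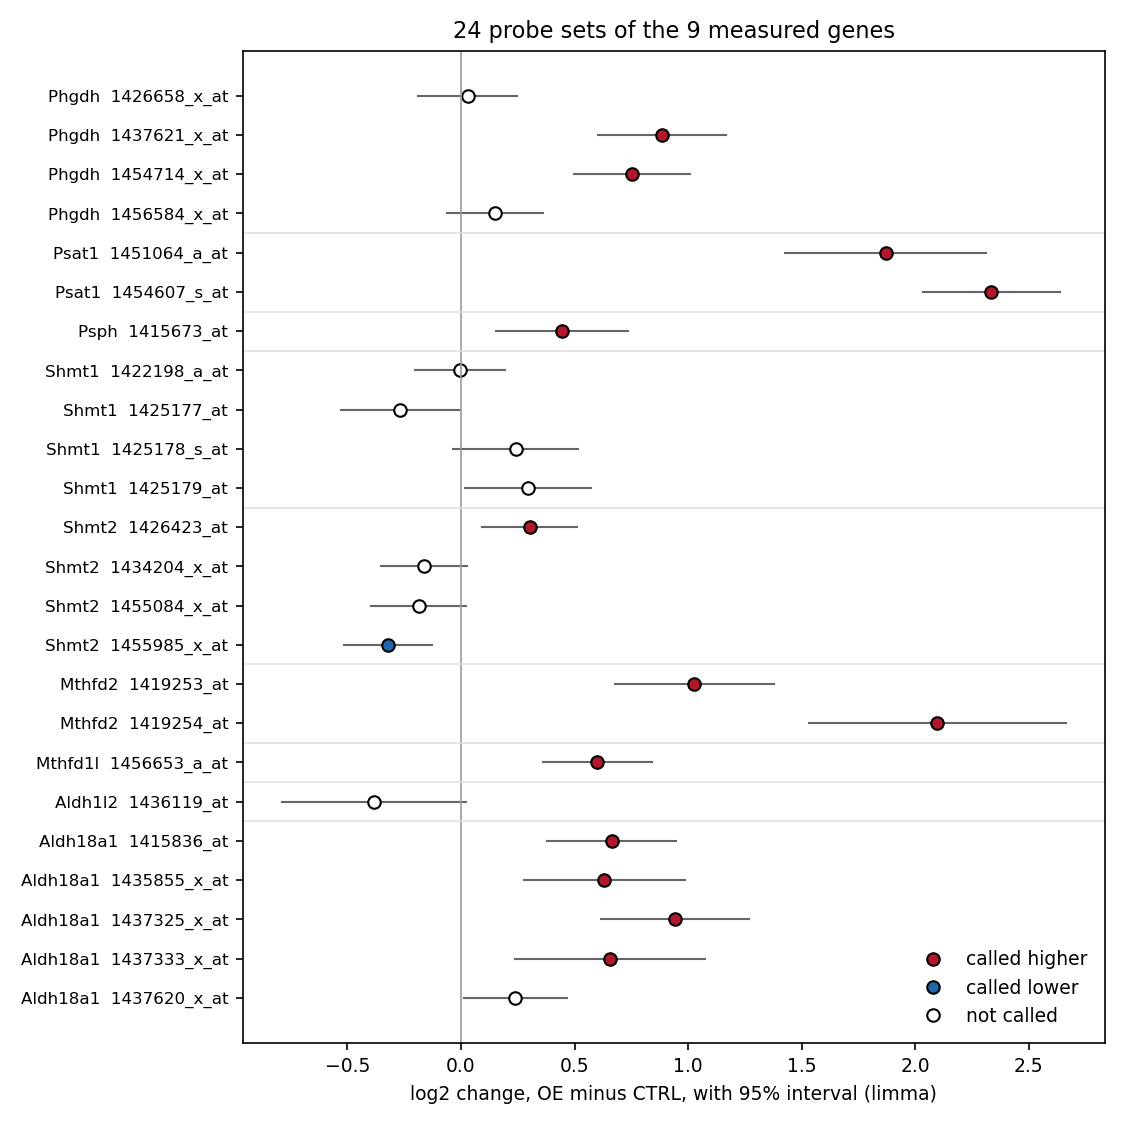
Log2 change, OE minus CTRL, of each of the 24 probe sets of the 9 measured genes with its 95% interval from limma. Red points were called higher (13), the blue point called lower (1) and open points not called (10), and the 4 probe sets of *Shmt2* fall on both sides of 0.

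Counted by probe set, 13 of the 24 were called higher, 1 lower and 10 neither way, where 13.9% of all probe sets were called higher and 10.4% lower. All OE arrays lay above all CTRL arrays in 16 of the 24 and below them in 3, where 21.1% of all probe sets lay above and 21.8% below. Probe sets of a gene are annotated to the same gene and were read in the same samples, so they are not separate evidence. Those with names in _x_at can also bind other transcripts.

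Within an array, *Mthfd2* was set against its relative *Mthfd2l*, and *Shmt2* against *Shmt1*. The value of *Mthfd2* less that of *Mthfd2l* averaged 0.50 ± 0.16 in OE and −0.67 ± 0.33 in CTRL (SD, n = 3 each), a difference of 1.18 without overlap (exact permutation test, two-sided, p = 0.1, also when adjusted over the 2 pairs, which is the smallest p that 3 arrays against 3 allow). *Mthfd2l* alone was 1.31-fold higher in OE (log2 0.39, adjusted p = 0.02 from limma), a call lost by analysis of variance (adjusted p = 0.0792), on the scale of the ribosomal protein genes (log2 0.17, adjusted p = 0.134) and without OE 1, OE 3 or CTRL 2 (adjusted p up to 0.0658). The value of *Shmt2* less that of *Shmt1* averaged −0.05 ± 0.01 in OE and 0.10 ± 0.09 in CTRL, a difference of −0.16 with the same exact p. It turned to 0.29 when probe sets ending in _x_at or _s_at were left out, so it has no settled sign.

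For proline, the first enzyme gene rose. *Aldh18a1*, which turns glutamate into the precursor that proline and ornithine share, was at 0.41, 0.58 and 0.13 in OE 1, 2 and 3 and at −0.33, −0.17 and −0.26 in CTRL 1, 2 and 3. OE 3 was the lowest of its group but still above all CTRL arrays. Means were 0.37 ± 0.23 in OE and −0.25 ± 0.08 in CTRL (SD, n = 3 each), a 1.54-fold rise with limma (log2 0.63, SE 0.12, adjusted p = 0.00772). Of its 5 probe sets 4 were called higher, by 1.55-fold to 1.92-fold, and 1437620_x_at (log2 0.24) was not. With one-way analysis of variance the gene missed the threshold (adjusted p = 0.0617).

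The *Aldh18a1* promoter, at chr19:40588464-40588713 on the minus strand of GRCm38.p6 in the RefSeq table, differs from the 3 above in its elements. Capitals mark an E-box, CACGTG, and a GC box, here read as CCGCCC on the strand printed.
Aldh18a1: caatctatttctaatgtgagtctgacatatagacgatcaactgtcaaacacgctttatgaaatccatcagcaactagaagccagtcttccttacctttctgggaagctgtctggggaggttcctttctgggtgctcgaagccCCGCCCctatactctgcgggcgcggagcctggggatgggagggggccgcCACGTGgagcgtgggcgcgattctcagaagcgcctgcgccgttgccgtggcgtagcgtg

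Over the 10 windows of this length that the table held for the listed genes, with 2 for *Psat1* and *Pycr1* included, each motif was searched on both strands and overlaps were allowed. CCAAT was found in 6 of the 10 and in 33.8% of 32851 mouse promoters of the same length, and GGGCGG in 6 of the 10 and in 32.7%. TGATGNAA was found in that of *Pycr1* alone (3.5% of all) and CACGTG in that of *Aldh18a1* alone (6.0%). AGGTCA, the half-site that nuclear receptors such as COUP-TFII recognise, was in 0 of the 10 and in 14.0% of all. A match or its absence describes these letters only.

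Counts in this and the later lists are to be read against 14.9% of all genes called higher and 11.8% lower. Of 16 other folate and one-carbon genes 4 were called higher, 1 lower and 11 neither way, with a median log2 change of 0.05. On the scale of the ribosomal protein genes 2 were called higher and 6 lower, with a median of −0.16. The 4 were *Ggh*, which trims the glutamate tail of folates (log2 0.56, adjusted p = 0.00353), *Mthfd1*, the cytosolic enzyme that takes up formate (log2 0.55, adjusted p = 0.00283), *Slc25a32*, the mitochondrial folate carrier (log2 0.41, adjusted p = 0.00796), and *Mthfd2l*. The call of *Slc25a32* was lost on the scale of the ribosomal protein genes (log2 0.19, adjusted p = 0.0936) and when probe sets ending in _x_at or _s_at were left out (log2 0.24, adjusted p = 0.147). *Mthfd1* was at 0.22, 0.31 and 0.22 in the OE arrays and at −0.19, −0.42 and −0.27 in the CTRL arrays, without overlap. The 1 called lower was *Slc19a1*, the folate carrier of the cell surface (log2 −0.26, adjusted p = 0.0308), which is named, as is *Vldlr* below, after its value was seen. Its call was lost without OE 2, OE 3, CTRL 1 or CTRL 3 (adjusted p up to 0.0928). *Mtrr*, the methionine synthase reductase (log2 0.03), and *Mthfs* (log2 −0.04) were not called.

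In the glycine cleavage system and glycine formation, 1 of 4 genes was called, *Dld*, which other mitochondrial dehydrogenases share (log2 −0.28), and *Gldc*, the decarboxylase of the system, was at log2 0.00. On the scale of the ribosomal protein genes 2 of the 4 were called lower. Among 8 other proline and ornithine genes 1 was called higher, *Pycrl*, a cytosolic reductase that completes proline (log2 0.41, adjusted p = 0.0187), and 2 lower, against 0 and 6 on the scale of the ribosomal protein genes. These were the 2 enzymes that break proline down again: *Prodh*, the proline dehydrogenase of mitochondria (log2 −0.91, adjusted p = 0.0248), and *Aldh4a1*, of the next step (log2 −0.41, adjusted p = 0.0382). *Prodh* was at −1.06, −0.75 and −0.07 in the OE arrays and at 0.34, 0.07 and 0.43 in the CTRL arrays, so all OE arrays were lower, with OE 3 near CTRL 2. The calls of *Prodh*, *Aldh4a1*, *Pycrl* and *Dld* were each lost when any of 4 or 5 of the 6 arrays was left out, with adjusted p up to 0.0727, 0.115, 0.0606 and 0.0832 in this order. The glutamate dehydrogenase *Glud1* (log2 0.01) and the peptidase *Pepd* (log2 −0.03) were not called.

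Among 10 genes of serine use and uptake 3 were called higher, 2 lower and 5 neither way, against 1 higher and 3 lower on the scale of the ribosomal protein genes. The 2 called lower are the pair that turns homocysteine and serine into cysteine, *Cth* (log2 −1.25, adjusted p = 0.0198) and *Cbs* (log2 −0.33, adjusted p = 0.0336). *Cth* was at −1.18, −0.25 and −0.20 in the OE arrays and at 0.20, 1.03 and 0.88 in the CTRL arrays, without overlap but widely spread in both groups. *Srr*, the serine racemase, was higher (log2 0.48, adjusted p = 0.00487), as was the amino acid transporter gene *Slc38a2* (log2 0.43, adjusted p = 0.0148). The call was lost without CTRL 2 for *Cth* (adjusted p = 0.0663), without CTRL 1 for *Slc38a2* (adjusted p = 0.0504) and without any array but CTRL 2 for *Cbs* (adjusted p up to 0.0953). *Sptlc1* (log2 0.10) and *Serinc3* (log2 −0.12) were not called.

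In the methionine cycle 2 of 9 genes were called in each direction, against 1 higher and 5 lower on the scale of the ribosomal protein genes. *Ahcy*, which hydrolyses S-adenosylhomocysteine (log2 0.56, adjusted p = 0.00121), and *Mtap*, which salvages methionine (log2 0.34, adjusted p = 0.0387), were higher, and *Gnmt*, the glycine methyltransferase (log2 −0.66, adjusted p = 0.00204), and *Mat1a*, a methionine adenosyltransferase (log2 −0.38, adjusted p = 0.0162), lower. Of 11 purine synthesis genes, to which folate carbon units go, only *Adss*, the adenylosuccinate synthetase, was called (log2 0.37, adjusted p = 0.0351), with a median of −0.07 over the list, and on the scale of the ribosomal protein genes 0 were called higher and 7 lower, where 50.8% of all genes were lower. The calls of *Mat1a* without CTRL 2 (adjusted p = 0.0532), of *Mtap* without any array but OE 3 (adjusted p up to 0.113) and of *Adss* without any OE array or CTRL 3 (adjusted p up to 0.0938) were lost.

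**Figure D3:**
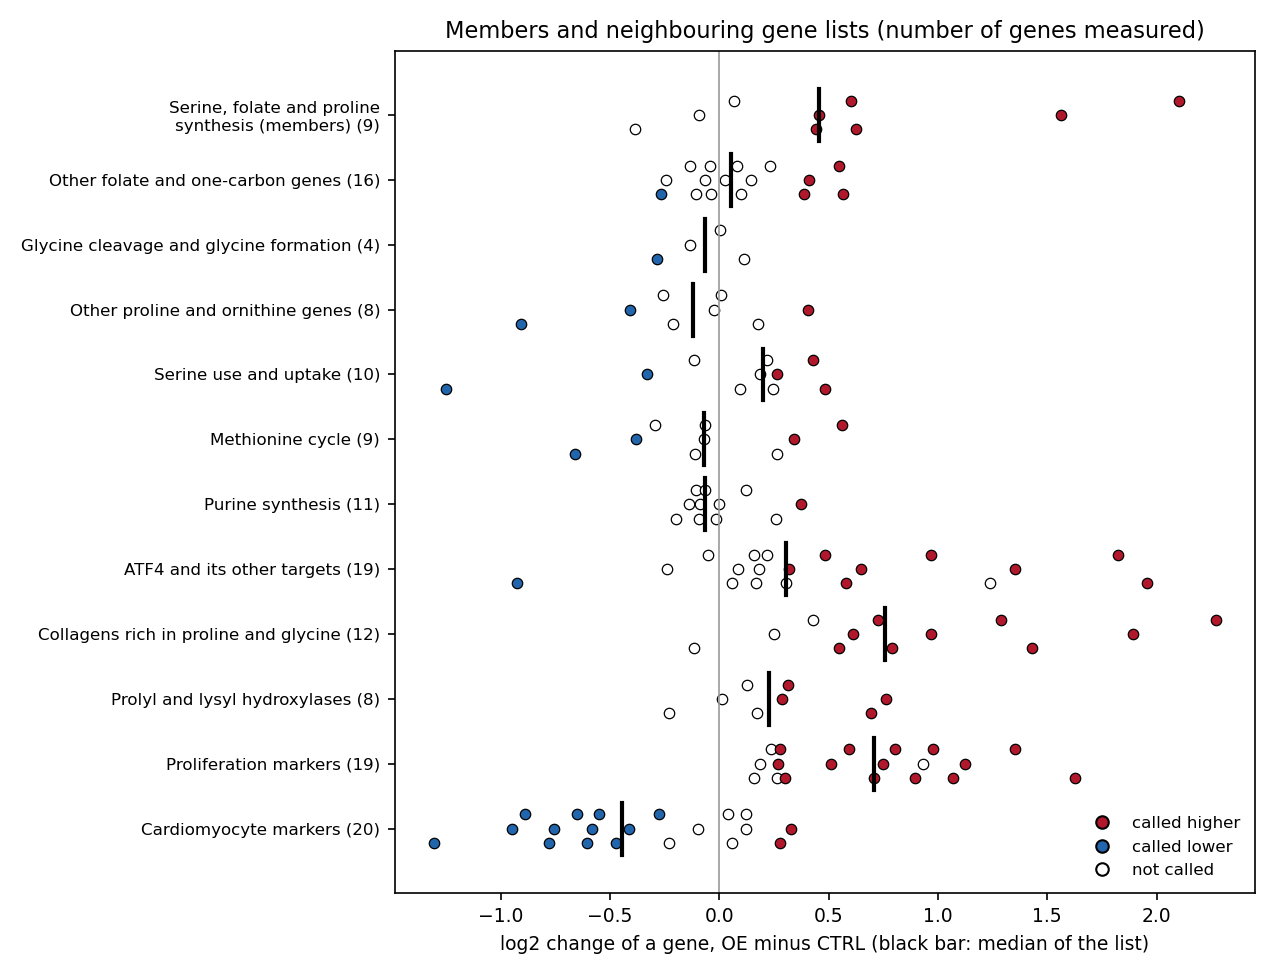
Log2 change, OE minus CTRL, of each gene in the pathway studied and in 11 lists of related genes, 1 point a gene, with the number of genes measured in brackets. Red points were called higher, blue lower and open points not called by limma, and the black bar is the median of a list, 0.45 for serine, folate and proline synthesis, 0.76 for collagens and −0.44 for cardiomyocyte markers.

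ATF4 and its other known targets were called higher in 8 of 19 genes and lower in 1, with a median log2 change of 0.31, and in 6 and 2 with a median of 0.09 on the scale of the ribosomal protein genes. *Atf5*, a related transcription factor, was at 1.32, 0.89 and 0.80 in the OE arrays and at −1.21, −0.85 and −0.80 in the CTRL arrays, 3.88-fold higher without overlap (log2 1.96, adjusted p = 0.000338). *Nupr1*, a stress-induced nuclear protein (log2 1.82, adjusted p = 0.000902), *Asns*, the asparagine synthetase (log2 1.35, adjusted p = 0.0293), and *Stc2*, a secreted glycoprotein (log2 0.97, adjusted p = 0.0108) followed. *Asns* was uneven within both groups, at 0.99, 0.05 and 1.11 in the OE arrays and at −1.31, −0.56 and −0.05 in the CTRL arrays, so OE 2 and CTRL 3 nearly met, and its call was lost without OE 1, OE 3, CTRL 1 or CTRL 2 (adjusted p up to 0.0953). *Atf4* itself, named outside the rule, was at 0.34, 0.04 and 0.26 in the OE arrays and at −0.54, −0.43 and −0.13 in the CTRL arrays (log2 0.58, adjusted p = 0.0133). Its call was lost when probe sets ending in _x_at or _s_at were left out (log2 0.19, adjusted p = 0.166) and without OE 1 (adjusted p = 0.0504). Without those probe sets *Asns* lost its call too (adjusted p = 0.073). In one-way analysis of variance *Atf4* (adjusted p = 0.0822), *Stc2* (adjusted p = 0.0864) and *Asns* (adjusted p = 0.148) lost their calls, while *Atf5* (adjusted p = 0.0213) and *Nupr1* (adjusted p = 0.0299) kept theirs. *Vldlr*, the receptor of very low density lipoprotein, was lower (log2 −0.92, adjusted p = 0.00105), and *Slc7a11* (log2 −0.05) and *Cebpg* (log2 0.06) were not called.

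Proline and glycine are abundant residues of collagen. Of 12 collagen genes 9 were called higher and 0 lower on either scale. Their median log2 change was 0.76, and 0.54 on the scale of the ribosomal protein genes. Without that centring *Col8a1* (log2 2.27, adjusted p = 0.000238), *Col5a2* (log2 1.89), *Col3a1* (log2 1.43) and *Col1a2* (log2 1.29) led. *Col6a3* (log2 −0.11) and *Col15a1* (log2 0.25) were not called. Of 8 prolyl and lysyl hydroxylase genes, which modify collagen chains, 4 were called higher and 0 lower, against 2 and 2 on the scale of the ribosomal protein genes, with *Plod2* (log2 0.76, adjusted p = 0.00283) and *P4hb* (log2 0.69, adjusted p = 0.0013) the largest. Of the 30 neighbouring genes that the naming rule gives as called, with *Atf4*, 17 lost the call in one-way analysis of variance, 8 on the scale of the ribosomal protein genes and 15 when some 1 array was left out. Those lost on that scale were *Adss*, *Mtap*, *Mthfd2l*, *P3h1*, *Plod3*, *Pycrl*, *Slc25a32* and *Slc38a2*. Both breakdown genes of proline, *Cth*, *Cbs*, *Pycrl*, *Asns* and *Atf4* were among those lost in analysis of variance and on leaving out an array.

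Markers of other cells moved beside these genes, and their part in the results was not tested. Over all genes 14.9% were called higher and 11.8% lower. Proliferation markers were called higher in 14 of 19 and lower in 0, and their mean over the list was 0.28 to 0.44 in the OE arrays and −0.43 to −0.20 in the CTRL arrays. Fibroblast markers, 3 of which are collagens counted above, were called higher in 10 of 18 and lower in 3 (list mean 0.30 to 0.49 in OE and −0.59 to −0.27 in CTRL). Macrophage markers were called higher in 11 of 21 and lower in 0 (0.13 to 0.35 in OE and −0.45 to −0.15 in CTRL). Cardiomyocyte markers were called higher in 2 of 20 and lower in 12 (−0.21 to −0.20 in OE and 0.13 to 0.20 in CTRL), and endothelial markers lower in 8 of 18 and higher in 0. Smooth muscle and pericyte markers were called higher in 5 of 12 and lower in 6, and lymphocyte and neutrophil markers in 0 of 13. On the scale of the ribosomal protein genes, where 50.8% of all genes were called lower, the counts higher and lower were 11 and 0 for proliferation, 10 and 3 for fibroblast, 7 and 1 for macrophage, 0 and 14 for cardiomyocyte, 0 and 14 for endothelial, 4 and 7 for smooth muscle and pericyte, and 0 and 6 for lymphocyte and neutrophil markers. Since the values hold no level, the labelled tissue could be checked only through these differences, and whether a marker lies near background cannot be read.

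The genes with the most similar values over the 6 arrays were sought for *Mthfd2* and *Phgdh* among the 18184 genes outside the pathway, by root mean square distance. For *Mthfd2* they were *Slc2a1*, the glucose transporter of most cells (0.129), *Loxl3*, a lysyl oxidase relative (0.138), and *Csrp2*, a LIM domain protein gene (0.145). For *Phgdh* they were *Commd5* (0.0259), *Chmp3* (0.0365) and *Chpf*, which extends chondroitin chains (0.0392). *Slc2a1* (log2 1.56) and *Commd5* (log2 0.44) had nearly the same change as the gene they were matched to. This follows from the matching, which used the same 6 values, and is no separate result.

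**Figure D4:**
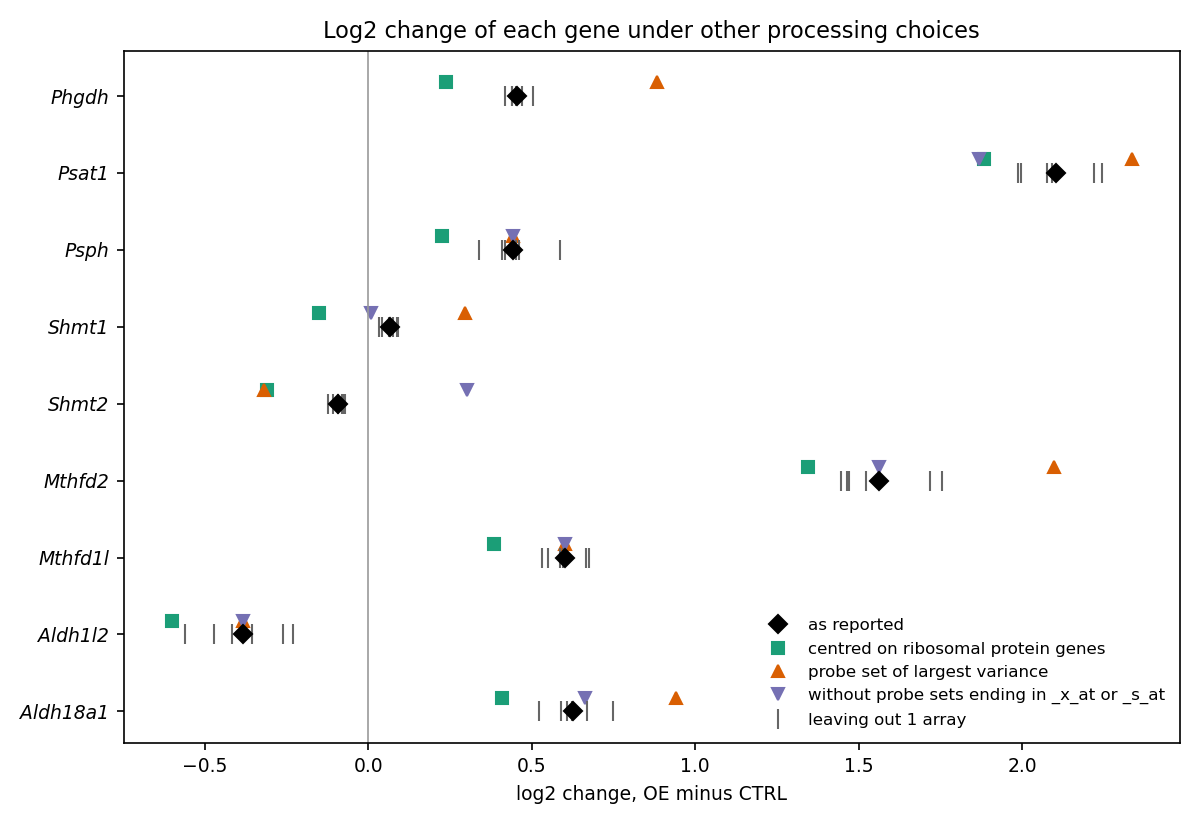
Log2 change, OE minus CTRL, of each measured gene as reported (black) and under other choices of centring, probe set and arrays. The lowest value is 1.87 for *Psat1* and 1.35 for *Mthfd2*, *Shmt2* spans −0.32 to 0.30, and *Aldh1l2* stays below 0.

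On the scale of the ribosomal protein genes *Psat1* (log2 1.89), *Mthfd2* (log2 1.35), *Aldh18a1* (log2 0.41), *Mthfd1l* (log2 0.38) and *Phgdh* (log2 0.24) kept their calls, and *Shmt2* (log2 −0.31, adjusted p = 0.00902) and *Aldh1l2* (log2 −0.60, adjusted p = 0.0169) were called lower, where 50.8% of all genes were.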

How the data were processed

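Ventricular RNA of 3 OE and 3 CTRL mice was measured on Affymetrix mouse arrays. The authors summarized the arrays by RMA in GeneSpring GX, quantile normalized them and subtracted from every probe set its median across the samples, and the deposited values, which ran from −4.29 to 3.54, were taken as log2 values because RMA gives these, although the sources used here give no base for the logarithm. The version of RMA is not given in the sources used here. Array medians lay between −0.0177 and 0.0133. The values hold no level and no signal over background, so no filter on expression was possible, and the number of arrays limits the precision.

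Of 45101 probe sets, 932 with several gene symbols, 9211 with none and the 64 array controls were left out. These groups overlap, since some controls also had no symbol or several. The 34945 left, with 1 symbol, gave 18193 genes. For 204 probe sets the array's own symbol was used. Probe sets of a gene were averaged. Groups were compared on all 6 arrays in limma 3.58.1 (lmFit, eBayes; R 4.3.3), two-sided, with Benjamini-Hochberg adjustment over all genes (or all probe sets) and a threshold of 0.05. The printed SE comes from the moderated fit. The script was tested on simulated data. Differences between paralogs were compared with an exact permutation test, whose smallest p is 0.1. A further planned pair is not reported here.

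The text names all listed genes, from each related list up to 4 called genes with the largest change and up to 2 not called with the smallest, the 3 nearest genes of *Mthfd2* and *Phgdh*, and *Nr2f2*. The genes and lists were chosen with earlier results of these data known. Labels number the replicates. P-values from limma set the difference between the groups against the spread within them, which limma moderates over all genes or probe sets.

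Alternatives were one-way analysis of variance, which the methods name, array weights, probe sets not ending in _x_at or _s_at, the probe set of largest variance, centring on ribosomal protein genes or array medians, the replicate number as a block, fold limits of 1.2 and 1.5, and leaving out each array. Promoter windows came from a RefSeq table of GRCm38.p6. Python 3.11.15, pandas 2.3.3 and matplotlib 3.10.9 were used.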

Additional observations from a re-analysis of the deposited data

How the results depend on the processing

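The number of the 9 genes called higher was 6 as reported and 4 to 6 under every alternative. The share of all genes called higher was 14.9% as reported, 7.9% with analysis of variance and 7.16% with ribosomal centring. It was 5.1% past 1.5-fold and 10.1% to 13% on leaving out single arrays. Of the 9 genes, 0 were called lower as reported and 1 with the probe set of largest variance (*Shmt2*). The number was 2 with centring on ribosomal protein genes (*Shmt2* and *Aldh1l2*) and 0 to 1 on leaving out single arrays (*Aldh1l2* without OE 3). The share of all genes called lower was 11.8% as reported and 13.2% with the probe set of largest variance. It was 50.8% with ribosomal centring and 6.83% to 9.51% on leaving out single arrays. Of the 24 probe sets, 13 were called higher as reported, 6 with one-way analysis of variance and 9 to 11 on leaving out single arrays. The 1 called lower became 0 with analysis of variance, 5 with ribosomal centring, 0 with the replicate block and 0 to 1 on leaving out single arrays. Shares of all probe sets were counted only as reported, 13.9% higher and 10.4% lower. The probe set counts under the alternatives thus have no share to be read against. The difference between *Shmt2* and *Shmt1* was −0.157 as reported, −0.617 with the probe set of largest variance and 0.294 when probe sets ending in _x_at or _s_at were dropped, where only 1 probe set of *Shmt2* is left. That between *Mthfd2* and *Mthfd2l* was 1.18 and, with the probe set of largest variance, 1.59. *Phgdh* has no value without probe sets ending in _x_at. *Shmt2* was called higher there (log2 0.30, adjusted p = 0.0313), and the changes of call in *Psph*, *Aldh18a1* and *Aldh1l2* stand with the results above.

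Replicate numbers did not pair the samples: deviations of same-numbered arrays correlated at 0.0697, −0.117 and 0.0253, and 2 of 6 arrays correlated best with their own number. With the replicate block 6 genes of the pathway were called higher, where 13% of all genes were. By probe set 12 were called higher, with no share of all probe sets to be read against.

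Over all genes, 2709 were called higher and 2152 lower. These were 1437 and 1125 with analysis of variance, 1302 and 9236 with ribosomal centring, and 927 and 479 past 1.5-fold. The number lower was 1243 without OE 1, 1402 without OE 3 and 1400 without CTRL 1. With 3 animals a group and no signal over background, a gene that missed the threshold is not shown to be equal in OE and CTRL.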
